A study of Mus musculus with 3 samples.

Results

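The 2 glucocorticoid receptor knockdown lines shGR1 and shGR2 were set against each other, gene by gene, to describe what differed between them and whether it went with the receptor transcript each line had left. Of 51803 gene symbols in the table of the series, 12387 had a mean of 1 FPKM or more over both lines (FPKM are fragment counts scaled by transcript length and library size, here summed over the transcripts of a symbol). A log2(shGR2/shGR1) was taken for the 12321 of these that were over 0 in both, and a positive value is a higher level in shGR2. The cells were mouse mpkCCD, a collecting duct line re-cloned for high Aqp2 expression, and all 3 lines of the series were stable lentiviral hairpin lines under vehicle (0 nM dDAVP, the vasopressin V2 receptor agonist). shCtrl carried a control hairpin, and shGR1 and shGR2 carried 2 different hairpins against the receptor. The lines had been selected with puromycin and were not described as single clones, and serum and supplements other than dexamethasone, a synthetic glucocorticoid, had been taken out of the medium of all of them.

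There was 1 library per line. No error, interval or test could therefore be had for any difference, hairpin, line and library could not be told apart, and every statement below holds for these 3 libraries. shCtrl served as the reference only. Depth was unknown, since the values were FPKM, so the size of a ratio usual at each abundance was taken from the genes themselves. The robust SD of log2(shGR2/shGR1), a scaled median absolute deviation, was 0.53 for genes at 1 to 2 FPKM, 0.25 at 5 to 10 FPKM, 0.16 at 20 to 50 FPKM and 0.14 at 100 FPKM and over. It describes scatter over genes and is not a replicate error.

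The glucocorticoid receptor is a hormone-activated transcription factor of the nuclear receptor family that waits in the cytosol with heat shock proteins and, once bound by steroid, moves to the nucleus and binds DNA at glucocorticoid response elements. In the collecting duct, corticosteroids raise the transcripts of the epithelial sodium channel and of its kinase regulator Sgk1. The enzyme 11beta-hydroxysteroid dehydrogenase type 2 turns active cortisol or corticosterone into inactive forms there, which shields the mineralocorticoid receptor. Principal cells of this segment also carry Aqp2, the vasopressin-regulated water channel.

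In these libraries both lines kept some receptor transcript, and shGR2 kept more. The methods of the study describe the receptor mRNA left in both lines as almost equal. They also give it as a larger share of the control level than either library here had. The order of the lines by receptor transcript therefore rests on 1 library each and holds for these libraries only. Nr3c1, the receptor gene, was at 30.2 FPKM in shCtrl, 4.41 FPKM in shGR1 and 9.13 FPKM in shGR2. That is 14.6% of the shCtrl level in shGR1 and 30.3% in shGR2, and a log2(shGR2/shGR1) of 1.05. The gene lies on the minus strand of chromosome 18 at 39410545 to 39519421 (GRCm38). A ratio as high or higher was met by 121 of the 12321 genes, Nr3c1 included. Of 1961 genes with a mean of 5 to 10 FPKM, the range Nr3c1 is in, 12 met it, again with Nr3c1 counted. The residue was not the same mix of transcripts in the 2 lines. The most abundant receptor transcript, ENSMUST00000115571, was at 20.4 FPKM in shCtrl, 2.98 FPKM in shGR1 and 7.61 FPKM in shGR2. ENSMUST00000115567, of nearly the same length, was at 3.44, 0.811 and 0.181 FPKM in the same order, so that it was lower in shGR2 than in shGR1. The shares of such overlapping transcripts are estimates of the quantification, and the gene total is less exposed to them. On the most abundant transcript alone the log2(shGR2/shGR1) was 1.35.

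The other 2 genes that mark the comparison were higher in shGR2 by more than the receptor was, but stood differently to shCtrl. Aqp2 (chromosome 15, 99579055 to 99584547, plus strand) was at 9.55 FPKM in shCtrl, 0.751 FPKM in shGR1 and 2.14 FPKM in shGR2, which is 7.87% of shCtrl in shGR1 and 22.4% in shGR2. Its log2(shGR2/shGR1) was 1.51, at an abundance where the robust SD was 0.53. Aqp2 was under 1 FPKM in shGR1 and passed the limit of 1 FPKM only through shGR2, so the filter favoured this direction for it. Hsd11b2, the gene of 11beta-hydroxysteroid dehydrogenase type 2 (chromosome 8, 105518755 to 105523988, plus strand), was at 27.8 FPKM in shCtrl, 19.5 FPKM in shGR1 and 55.8 FPKM in shGR2. It was therefore below shCtrl in shGR1, at 70.0% of it, and above shCtrl in shGR2, at 200.5%. Its log2(shGR2/shGR1) of 1.52 was the highest of all genes at 20 FPKM or more that carry a gene name rather than a predicted or clone symbol. The low Aqp2 went in both lines with a low receptor transcript, while the Hsd11b2 values did not lie in the order of the receptor transcript across the 3 lines.

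**Figure D1:**
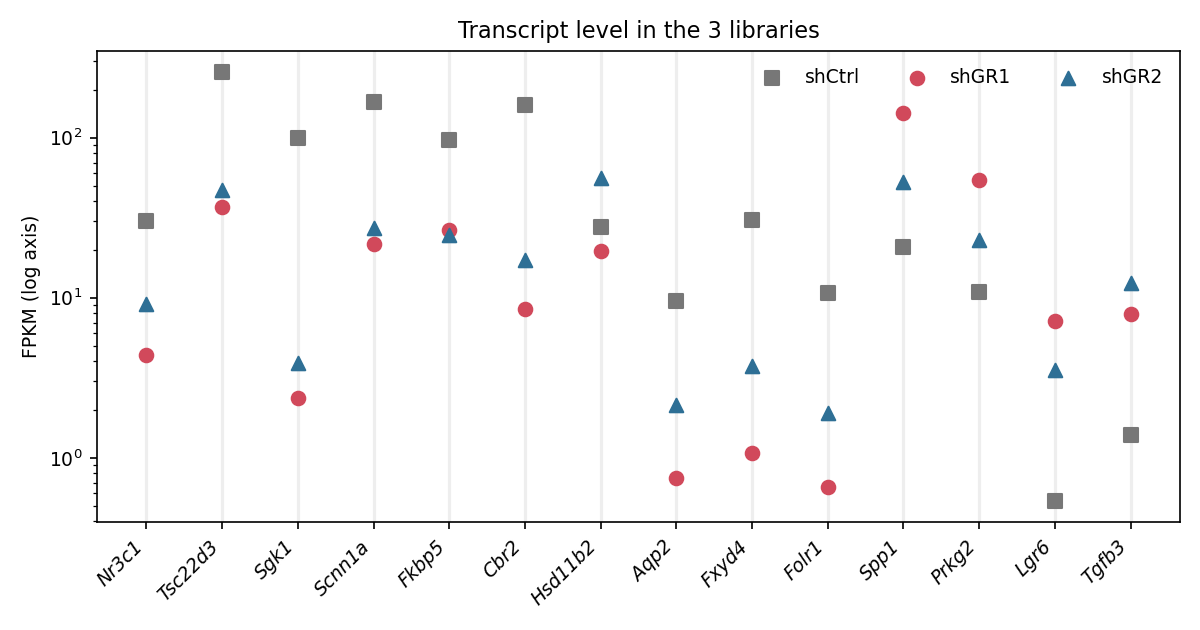
FPKM (log axis) of 14 genes in the 3 libraries, with 1 point per library (grey squares shCtrl, red circles shGR1, blue triangles shGR2). Nr3c1 stood at 30.2, 4.41 and 9.13 FPKM; Aqp2, Fxyd4 and Folr1 lay in the same order, Hsd11b2 was above shCtrl in shGR2 only, and Tgfb3 was further from shCtrl in shGR2.

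Most transcripts were at nearly the same level in both lines. Of the 12321 genes, 11503 (93.4%) were within 1.5-fold, and the median log2(shGR2/shGR1) was -0.04 with quartiles at -0.19 and 0.09. A ratio of 2-fold or more was met by 130 genes that were higher in shGR2 (1.06% of all compared) and 137 that were lower (1.11%). Removing the trend of the ratio on abundance changed this split to 160 higher and 106 lower. Of these 267 genes, 211 had a mean under 5 FPKM, and only 14 of the 5051 genes at 20 FPKM or more were among them. Protein-coding genes made up 63.8% of the higher and 62.0% of the lower genes, against 85.7% of all genes compared. The genes next to the limit had log2 ratios of 1.02 and 0.99 on the higher side and -1.001 and -0.999 on the lower side, and the genes next to the limit of 1 FPKM had means of 1.0005 and 0.9992 FPKM.

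**Figure D2:**
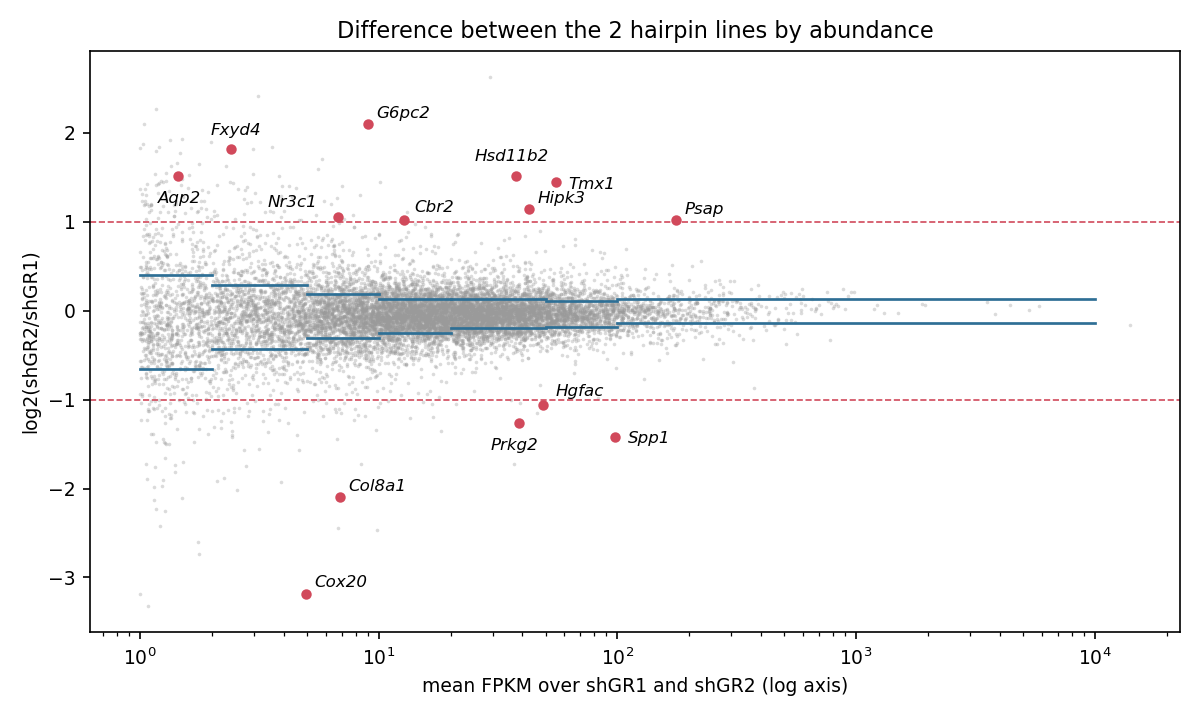
log2(shGR2/shGR1) of 12321 genes (grey points) against their mean FPKM over both lines (log axis), with named genes in red. Blue lines are the median plus and minus 1 robust SD in each abundance range and dashed red lines are 2-fold; the scatter narrowed from a robust SD of 0.53 at 1 to 2 FPKM to 0.14 at 100 FPKM and over, and Hsd11b2, Tmx1, Hipk3, Psap, Spp1, Prkg2 and Hgfac lay outside 2-fold at 20 FPKM or more.

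Among genes low in both lines, shGR2 was mostly the one nearer to shCtrl. At least 2-fold below shCtrl in both lines were 180 genes (1.46% of the 12301 genes that were also over 0 in shCtrl). In 121 of them (67.2%) the shGR2 level was the higher, against 41.2% of all compared genes with shGR2 above shGR1. The median log2(shGR2/shGR1) of the 180 was 0.15, which is smaller than the 1.05 of the receptor, and 14 of them, the receptor included, had a ratio at or above that of Nr3c1. Of the 27 that were at least 4-fold lower in both lines, 22 (81.5%) were higher in shGR2, with a median of 0.45. The median of these 27 genes was 11.2% of shCtrl in shGR1 and 17.0% in shGR2.

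Genes high in both lines lay the same way, with shGR2 the less far from shCtrl. At least 2-fold above shCtrl in both lines were 133 genes (1.08%). In 92 of them (69.2%) the shGR2 level was the lower, against 58.8% of all compared genes with shGR2 below shGR1, and their median log2(shGR2/shGR1) was -0.24. Of the 25 at 4-fold or more, 18 (72.0%) were lower in shGR2, with a median of -0.46. Where the 2 lines differed by 2-fold or more, the difference was toward shCtrl in shGR2 for 15 of the 180 low genes and away from it for 2, and toward it for 13 of the 133 high genes and away from it for 0.

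shGR2 was nearer to shCtrl in more of the genes that lay far from it than of those that lay close to it on the low side. For genes whose 2 log2 ratios to shCtrl averaged between 0 and -0.5, shGR2 was nearer to shCtrl in 2650 of 5700 (46.5%). The share was 597 of 980 (60.9%) between -0.5 and -1, 147 of 227 (64.8%) between -1 and -2, 25 of 31 (80.6%) between -2 and -3 and 10 of 12 (83.3%) below -3. On the high side it was 3139 of 4532 (69.3%) between 0 and 0.5, 118 of 171 (69.0%) between 1 and 2, and 28 of 35 (80.0%) from 2 up. The share thus rose step by step on the low side and was nearly flat on the high side up to 2. These ratios were not centred. shGR2 was above shGR1 in 41.2% of all genes as used here, and in 50% with ratios centred on the median. The shares close to shCtrl, on either side of it, therefore depend on the scaling. Over all genes shGR2 was nearer to shCtrl in 7138 of 12301 (58.0%), and the median absolute log2 ratio to shCtrl was 0.23 for shGR1 and 0.20 for shGR2. The library with less receptor transcript, shGR1, was thus also further from shCtrl over all genes. The range from 0 to -0.5, where the share depends on the scaling, was an exception. Both comparisons use the same shCtrl library.

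**Figure D3:**
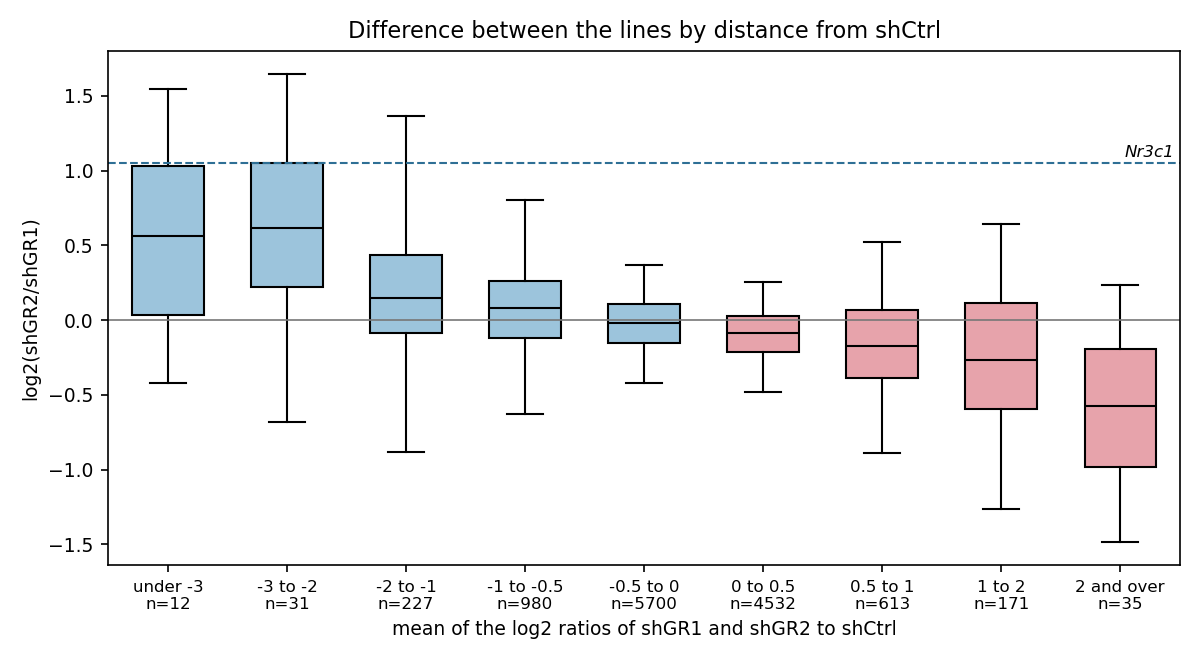
log2(shGR2/shGR1) (y axis) of 12301 genes in ranges of the mean of their log2 ratios to shCtrl (x axis, numbers of genes under each range). Boxes span the quartiles with the median as a line, whiskers reach the 5th and 95th percentiles, and the dashed line is Nr3c1 at 1.05; the medians were 0.56 below -3, 0.62 from -3 to -2 and -0.58 from 2 up.

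The genes with the widest gap between the lines among the most depleted ones included 2 collecting duct transport genes, Fxyd4 and Aqp2. At least 4-fold below shCtrl in both lines with a mean of 1 FPKM or more over the 3 libraries, predicted, clone and pseudogene symbols left out, were 34 genes, 26 of them higher in shGR2. Fxyd4, a small regulator of the sodium pump in the collecting duct, was at 30.7 FPKM in shCtrl, 1.07 FPKM in shGR1 and 3.76 FPKM in shGR2, with a log2(shGR2/shGR1) of 1.82. Folr1, the folate receptor alpha, was at 10.7, 0.657 and 1.92 FPKM in the same order (1.54). The totals of both were higher in shGR2, by a wider ratio than the receptor. For Folr1 the shGR1 value was a single transcript, ENSMUST00000106985, at 0.657 FPKM in shGR1 and 0.217 FPKM in shGR2, and the higher total in shGR2 came from transcripts listed at 0 in shGR1. Tmem213, which codes for a small membrane protein, was at 29.7, 2.51 and 6.53 FPKM (1.38). Fcgbp, a mucin-like secreted protein, was at 24.9, 0.903 and 1.89 FPKM (1.06). Among the genes named in this paragraph, Cbr2, a carbonyl reductase, had the highest level in shCtrl. It was at 161 FPKM there, 8.45 FPKM in shGR1 and 17.1 FPKM in shGR2, a log2 ratio of 1.02 that came to 0.80 on its most abundant transcript alone.

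Some strongly depleted genes had the lower total in shGR2. Inmt, an indolethylamine N-methyltransferase, was at 36.0 FPKM in shCtrl, 4.77 FPKM in shGR1 and 2.22 FPKM in shGR2, a log2(shGR2/shGR1) of -1.11. It was lower in the line that had more receptor transcript. Tmem45b, a transmembrane protein gene, was at 46.5, 8.91 and 7.44 FPKM (-0.26). Mlph, the melanophilin of organelle transport, was at 18.0, 1.46 and 1.09 FPKM (-0.42), within the robust SD of 0.53 at its abundance, and its most abundant transcript had a log2 ratio of 0.12 in the other direction. Zbtb16, a zinc finger repressor that answers to glucocorticoids in many cells, was at 10.05 FPKM in shCtrl, 0.168 FPKM in shGR1 and 0.137 FPKM in shGR2. It was close to gone in both lines, at values where a ratio says little. Gsdmc4, a gasdermin with near-identical copies, had 18.4, 0.964 and 0.683 FPKM. Spink8 had the lowest ratio of the depleted genes, -2.14, at 2.79 FPKM in shCtrl, 0.219 FPKM in shGR1 and 0.0495 FPKM in shGR2. These values too were far under 1 FPKM in both lines.

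Known glucocorticoid-induced genes differed less between the lines than the receptor did, and not all of them were low. Of 41 on the list, 26 were compared, of which 18 were below shCtrl in both lines and 6 were above it in both. Errfi1, a feedback inhibitor of the epidermal growth factor receptor, was at 19.3 FPKM in shCtrl, 38.3 FPKM in shGR1 and 43.9 FPKM in shGR2. Of the 26, 16 were above shGR1 in shGR2 and 10 were below, and the median log2(shGR2/shGR1) was 0.09 beside -0.04 for all genes. Their median log2 ratio to shCtrl was -0.66 in shGR1 and -0.65 in shGR2. By 1.5-fold or more, 2 were higher in shGR2 (2.89% of all genes were) and 0 were lower (3.75% of all genes were).

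Of the 26, 8 were at least 2-fold below shCtrl in both lines, and 7 of these 8 were higher in shGR2. Their shGR2 level was between 0.94 and 1.66 times the shGR1 level with a median of 1.23 times, and none reached the 2.07 times of the receptor. Tsc22d3, a leucine zipper protein that blunts inflammation, was at 257 FPKM in shCtrl, 36.9 FPKM in shGR1 and 46.9 FPKM in shGR2, which left 14.4% and 18.3%. Fkbp5, a co-chaperone that dampens the receptor, was at 97.1, 26.5 and 24.8 FPKM and kept 27.3% and 25.6%. Fkbp5 was thus the one of the 8 that was lower in shGR2, by less than the robust SD at its abundance. Per1, a clock gene, was at 15.8, 3.36 and 3.998 FPKM, and its relative Per2 was at 17.6, 6.78 and 8.23 FPKM. Arl4d, a small GTPase gene, was at 40.9, 3.07 and 3.14 FPKM, nearly the same in both. Gadd45g, a growth arrest and stress gene, was at 26.2, 4.997 and 8.05 FPKM, and its log2(shGR2/shGR1) of 0.69 was second to that of Sgk1.

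Sgk1, the serum- and glucocorticoid-regulated kinase that keeps the epithelial sodium channel at the cell surface, was the most depleted of the 8. It was at 99.8 FPKM in shCtrl, 2.36 FPKM in shGR1 and 3.92 FPKM in shGR2, which left 2.36% and 3.93%, with a log2(shGR2/shGR1) of 0.73. Its promoter is shown because, of the 8619 compared genes with a promoter in the RefSeq table (GRCm38.p6, 250 bases before to 50 after the start), it alone held the full glucocorticoid response element (AGAACA, any 3 bases, then TGTNCT) on either strand, a share of 0.0116%. The sequence below is chr10:21993640-21993939 on the plus strand, 5′ to 3′, and the capitals mark the site, which begins 189 bases before the start. A match of letters is a description and not evidence of binding, and with 69.9% of the compared genes in the promoter table no set of genes was compared.
Sgk1 promoter: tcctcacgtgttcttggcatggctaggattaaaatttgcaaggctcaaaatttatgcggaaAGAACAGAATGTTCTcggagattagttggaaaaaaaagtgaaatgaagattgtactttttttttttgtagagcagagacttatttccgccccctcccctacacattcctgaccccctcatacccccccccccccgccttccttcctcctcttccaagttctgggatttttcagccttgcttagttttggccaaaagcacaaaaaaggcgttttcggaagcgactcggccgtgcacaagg
The transcripts of Sgk1 did not all behave alike. ENSMUST00000020145 went from 75.6 FPKM in shCtrl to 1.97 in shGR1 and 3.64 in shGR2. ENSMUST00000141218 went from 19.9 FPKM to 0.106 in shGR1 and was listed at 0 in shGR2.

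Of the partners of the receptor, none differed by 1.5-fold between the lines. The list of receptor, chaperones and co-regulators had 28 compared genes with a median log2(shGR2/shGR1) of -0.03, whose sign changed with the scaling, and Nr3c1 was the only one with a 1.5-fold difference. The next were the co-activator Carm1, at 26.3 FPKM in shCtrl, 33.0 FPKM in shGR1 and 25.4 FPKM in shGR2, with a log2 ratio of -0.38, and the acetyltransferase Ep300 at 0.22. The chaperone Hsp90ab1 was at 981 FPKM in shCtrl, 1314.5 FPKM in shGR1 and 1289 FPKM in shGR2. Nr3c2, the mineralocorticoid receptor, was at 0.125, 0.238 and 0.265 FPKM and so under the limit for a ratio.

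Most genes on the list of corticosteroid availability differed little between the lines, and a few were higher in shGR2. On this list 11 of 18 genes were compared, the median log2(shGR2/shGR1) was 0.17, and 3 were at least 1.5-fold higher in shGR2 (2.89% of all genes were) while 0 were lower (3.75% of all genes were). The 3 were Hsd11b2, Cbr2 and Cbr3, the last a carbonyl reductase at 1.67 FPKM in shCtrl, 0.819 FPKM in shGR1 and 1.49 FPKM in shGR2. Hsd11b2 was a marker given with the comparison, and Cbr3 passed the limit of 1 FPKM only through shGR2. H6pd, which supplies the cofactor for the reverse 11beta-hydroxysteroid dehydrogenase reaction, was at 57.3, 27.1 and 30.6 FPKM. It was low in both lines and nearly level between them. Abcb1b, a drug and steroid efflux pump, had the lowest ratio, -0.37.

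For sodium reabsorption, the channel and pump genes that were low in both lines were less low in shGR2. Of 25 compared genes 5 were at least 1.5-fold higher in shGR2 (2.89% of all genes were) and 2 lower (3.75% of all genes were), with a median of 0.17. Scnn1a, the alpha subunit of the epithelial sodium channel, was at 168 FPKM in shCtrl, 21.7 FPKM in shGR1 and 27.2 FPKM in shGR2, a log2(shGR2/shGR1) of 0.33. Scnn1g, the gamma subunit, was at 7.81, 2.72 and 5.19 FPKM, with a log2 ratio of 0.93. Atp1b1, a beta subunit of the sodium pump, had a log2(shGR2/shGR1) of 0.17 only. The FXYD family of sodium pump regulators was split. Fxyd4 was higher in shGR2, as above, whereas Fxyd5, known as dysadherin, was at 1.67 FPKM in shCtrl, 9.61 FPKM in shGR1 and 4.68 FPKM in shGR2. Fxyd2, the gamma subunit of the pump, was at 7.88 FPKM in shCtrl, 14.0 FPKM in shGR1 and 5.55 FPKM in shGR2, with a log2 ratio of -1.34. Fxyd2 was thus above shCtrl in shGR1 and below it in shGR2, while Fxyd5 was above shCtrl in both.

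Vasopressin signaling genes and the transcription factors of principal cells were close to level. The vasopressin list had a median log2(shGR2/shGR1) of -0.03 over 30 compared genes, and its sign changed with the scaling. Avpr2, the V2 receptor, was at 28.5 FPKM in shCtrl, 12.8 FPKM in shGR1 and 12.1 FPKM in shGR2, so that it was low in both lines without a gap between them. Adcy6, the adenylyl cyclase next in the pathway, was at 41.9, 30.2 and 30.4 FPKM. The wider ratios were those of Aqp2 and, on the lower side, of Rapgef3, a cyclic AMP-activated exchange factor, and Rap1gap, which turns off the GTPase Rap1. Rapgef3 was at 11.6, 9.25 and 5.56 FPKM and Rap1gap at 1.20, 11.3 and 7.18 FPKM. Of 22 principal cell transcription factors, 0 differed by 1.5-fold and the median was 0.03. Elf3 was at 55.7, 36.9 and 41.2 FPKM, Gata3 at 59.6, 43.2 and 46.6 FPKM, and the widest ratio was 0.46, for the grainyhead-like factor Grhl1. None of these factors had a transcript ratio as wide as that of Aqp2, and neither did Avpr2 or Adcy6. The cause of the Aqp2 gap was not tested.

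Several abundant genes had their shCtrl level in shGR2 and were low in shGR1 alone. Tmx1, a thioredoxin-related membrane protein of the endoplasmic reticulum, was at 87.1 FPKM in shCtrl, 29.7 FPKM in shGR1 and 80.9 FPKM in shGR2, a log2(shGR2/shGR1) of 1.44. Psap, the precursor of the lysosomal saposins, was at 245, 116 and 235 FPKM (1.02). Hipk3, a homeodomain-interacting kinase, was at 62.4, 26.7 and 58.9 FPKM (1.14). For these 3 genes shGR1 was below shGR2 by more than 6 times the robust SD at their abundance. Ero1l, an oxidase of disulfide bond formation, was at 48.0, 25.5 and 44.8 FPKM. Cxadr, a junctional adhesion protein, was at 89.9, 48.4 and 84.9 FPKM, and Mfap3l was at 67.5, 33.2 and 61.6 FPKM. Fermt2, which activates integrins, was at 38.8, 15.2 and 27.7 FPKM. Apart from Fermt2, which was below shCtrl in shGR2 too, these genes were near shCtrl in shGR2 although the receptor transcript was low there. G6pc2, a glucose-6-phosphatase family member, had the highest ratio of the named genes, with 12.0 FPKM in shCtrl, 3.42 FPKM in shGR1 and 14.6 FPKM in shGR2 (2.10), and all 3 of its transcripts were higher in shGR2.

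Of the genes lower in shGR2, some were above shCtrl in both lines and some in shGR1 only. Spp1, which codes for the secreted phosphoprotein osteopontin, was at 20.8 FPKM in shCtrl, 142 FPKM in shGR1 and 53.1 FPKM in shGR2 (-1.42). Prkg2, a cyclic GMP-dependent kinase, was at 10.9, 54.8 and 22.8 FPKM (-1.26). In both of these shGR2 lay between shCtrl and shGR1, on the low side of the gap. Col8a1, a short-chain collagen, was at 1.92, 11.2 and 2.62 FPKM (-2.10), and Unc13a, a vesicle priming protein, at 1.98, 6.92 and 2.34 FPKM (-1.56). These 2 were near shCtrl in shGR2. Fam213a was at 83.7, 163 and 96.0 FPKM (-0.76).

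For another group the 2 lines fell on opposite sides of shCtrl. Lhfp, a tetraspan membrane protein gene, was at 47.0 FPKM in shCtrl, 63.5 FPKM in shGR1 and 28.7 FPKM in shGR2 (-1.15). Hgfac, the protease that activates hepatocyte growth factor, was at 49.6, 66.0 and 31.7 FPKM (-1.06), and all 6 of its transcripts were lower in shGR2. Cox20, an assembly factor of cytochrome c oxidase, had the lowest ratio of the named genes, with 4.003, 8.95 and 0.986 FPKM (-3.18). None of these 3 genes had the order of the receptor transcript. Of the 129 genes 2-fold higher in shGR2 with a value in shCtrl, 79 had the lines on opposite sides of shCtrl, 44 had both below and 6 had both above. Of 131 such genes 2-fold lower in shGR2, 75 were on opposite sides, 44 had both above and 12 both below. Fntb, a farnesyltransferase subunit, was at 28.3, 28.3 and 13.7 FPKM, but this rested on 1 short transcript listed at 0 in shGR2, and on its most abundant transcript the log2 ratio was -0.38.

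Genes at least 4-fold above shCtrl in both lines were mostly less so in shGR2, with exceptions. There were 11 such genes with a mean of 1 FPKM or more over the 3 libraries once predicted, clone and pseudogene symbols were left out, and 2 of them were higher in shGR2. Lgr6, an R-spondin receptor, was at 0.537 FPKM in shCtrl, 7.14 FPKM in shGR1 and 3.52 FPKM in shGR2 (-1.02). Creb5, a cyclic AMP response element-binding factor, was at 0.216, 2.90 and 1.17 FPKM (-1.31). Both were under 1 FPKM in shCtrl and higher in the line with less receptor transcript. Tgfb3, a transforming growth factor beta ligand, was at 1.39, 7.93 and 12.3 FPKM (0.64) and was the further above shCtrl in shGR2. Fgf5, a fibroblast growth factor, was at 0.928, 4.29 and 4.58 FPKM, nearly level. Sparc, a matrix protein, was at 3.67, 18.9 and 15.3 FPKM, and its ratio of -0.31 became 0.19 on its most abundant transcript alone.

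The wider TGF-beta list had a median of 0.01 over 33 compared genes and did not lie to one side. Tgfb2, another ligand, was at 1.29 FPKM in shCtrl, 2.61 FPKM in shGR1 and 1.20 FPKM in shGR2 (-1.11), against Tgfb3 on the higher side. Fn1, fibronectin, was at 87.3, 272 and 186 FPKM. The co-receptor Tgfbr3 was at 11.7, 4.61 and 7.72 FPKM (0.75).

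**Figure D4:**
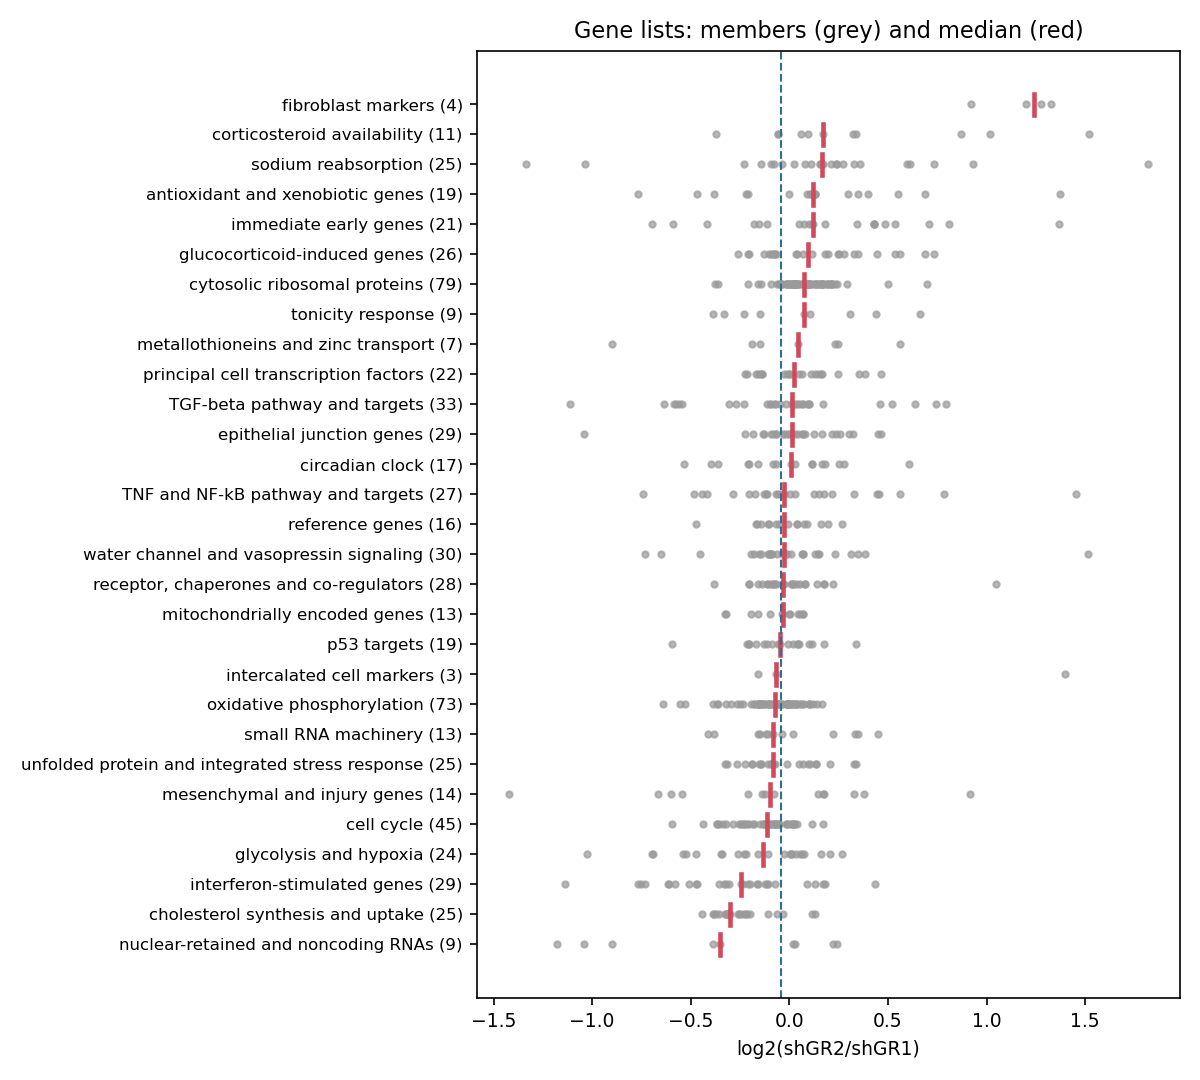
log2(shGR2/shGR1) of each compared member (grey points) and the median (red bars) of the gene lists with 3 or more compared members, whose numbers are in parentheses. The dashed line is the median of all genes, -0.04; the list medians ran from -0.35 for nuclear-retained and noncoding RNAs to 1.24 for fibroblast markers.

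Cholesterol and interferon genes were lower in shGR2 by small amounts. Of 25 compared genes of cholesterol synthesis and uptake, 23 were below shGR1 in shGR2, beside 58.8% of all genes, and none of the 25 by as much as 1.5-fold. The median log2(shGR2/shGR1) was -0.30, and the median log2 ratio to shCtrl was 0.36 in shGR1 and 0.12 in shGR2. Fdps, a farnesyl diphosphate synthase, was at 97.8 FPKM in shCtrl, 144 FPKM in shGR1 and 111 FPKM in shGR2. Of 29 compared interferon-stimulated genes 24 were lower in shGR2, 6 of them by 1.5-fold (3.75% of all genes were), with a median of -0.25. Ifi27 was at 4.44 FPKM in shCtrl, 6.70 FPKM in shGR1 and 3.04 FPKM in shGR2, and Bst2, an antiviral membrane protein, was at 8.48, 14.1 and 8.48 FPKM. Irf1, a transcription factor of the pathway, was at 16.3, 13.1 and 12.4 FPKM and so nearly level between the lines.

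The growth and translation lists had medians close to that of all genes, which was -0.04, but their members lay more to one side. Of all genes 58.8% were lower in shGR2 and 41.2% were higher. Of 45 compared cell cycle genes 37 were lower in shGR2, with a median log2(shGR2/shGR1) of -0.11. Top2a, a topoisomerase of dividing cells, was at 103 FPKM in shCtrl, 155 FPKM in shGR1 and 120 FPKM in shGR2. Of 79 cytosolic ribosomal protein genes 60 were higher in shGR2, with a median of 0.08, and of 73 oxidative phosphorylation genes 54 were lower, with a median of -0.07. Their medians kept their sign under every scaling tried. Genes of immediate early response had a median of 0.12, with Egr2, Fosb and Fos at least 1.5-fold higher in shGR2 and Klf4 and Dusp6 at least 1.5-fold lower. Egr2 was at 1.57, 1.44 and 3.72 FPKM.

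Markers of fibroblasts were low in level and differed between the lines. In such bulk libraries, fewer cells of a type cannot be told apart from less RNA per cell. Of 7 fibroblast markers 4 had a mean of 1 FPKM or more over shGR1 and shGR2. All 4 were at least 1.5-fold higher in shGR2 (2.89% of all genes were). Col1a1 and Col1a2 were under 1 FPKM in shGR1 and passed the limit only through shGR2, so the filter favoured this direction for them. Dcn, the proteoglycan decorin, was at 3.13 FPKM in shCtrl, 1.73 FPKM in shGR1 and 4.34 FPKM in shGR2, and the collagen gene Col1a1 was at 1.501, 0.885 and 2.14 FPKM. The 7 markers summed to 9.23 FPKM in shCtrl, 5.99 FPKM in shGR1 and 13.0 FPKM in shGR2. Lum, Pdgfra and Pdgfrb, the other markers, were under 1 FPKM in every library, and none of the 7 was listed at 0. Among the 10 named genes with the highest ratio, Bgn, a matrix proteoglycan, was at 2.91, 1.32 and 4.64 FPKM and Thy1, a surface glycoprotein of fibroblasts and other cells, was at 1.05, 0.624 and 2.39 FPKM. They lay in the same order as the fibroblast markers, but both were picked for a high ratio, which set that shGR2 was above shGR1. Thy1 was also under 1 FPKM in shGR1 and passed the limit only through shGR2. The part of such cells in these differences was not tested. Leukocyte markers summed to 20.9, 13.9 and 14.3 FPKM in that order, most of it Csf1r, with Cd3e listed at 0 in shGR1 and Ptprc under 1 FPKM throughout, proximal tubule markers to 2.18, 2.25 and 3.63 FPKM with Slc34a1 and Slc22a6 listed at 0 throughout, and endothelial markers to 0.579, 0.515 and 0.663 FPKM. Of the intercalated cell markers Rhcg, an ammonia transporter also found in principal cells, was at 13.0, 2.31 and 6.08 FPKM (1.40), whereas Atp6v1b1, a proton pump subunit, was at 39.4, 20.2 and 18.1 FPKM and Car2, a carbonic anhydrase, at 34.4, 16.6 and 15.9 FPKM, so that both were low in the knockdown lines without a gap between them.

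A further 66 genes reached the limit of 1 FPKM but were listed at 0 in 1 of the lines, 34 in shGR1 and 32 in shGR2, and have no ratio. Of these, 54 had a clone, predicted or pseudogene symbol, 44 were small RNAs and 1 was protein coding. Scarna17, a small Cajal body RNA, was at 242 FPKM in shCtrl and 189 FPKM in shGR1 and was listed at 0 in shGR2. Differences were spread over the genome, with chromosome medians of log2(shGR2/shGR1) between -0.06 on chromosome 2 and -0.02 on chromosome 18 over 20 chromosomes.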

How the data were processed

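RNA-seq of 3 mpkCCD lines (shCtrl, shGR1 and shGR2, 1 library each) was used. The deposited values are FPKM per Ensembl transcript (128603 transcripts); the submitters' processing notes list Cufflinks 2.2.1 with Cuffdiff, HISAT2 and bcl2fastq 2.20. The notes name build GRCm39, but 98.62% of 128066 transcripts lie at GRCm38 positions (GENCODE M21), which are printed here. Library strand and read totals were not given in the sources used here, so depth and its precision are unknown, and genes sharing sequence with near-identical copies or overlapping genes (Hist1h2ap, Selenbp2, ribosomal proteins) are uncertain. A further 4 tables hold the authors' own ratios, p-values and q-values between lines and were not used.

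FPKM were summed per gene symbol. log2(shGR2/shGR1) was taken without a pseudocount at a mean of 1 FPKM or more; the scripts were tested on simulated data (Python 3.11.15, pandas 2.3.3, numpy 2.4.6, statsmodels 0.14.6). Named genes were the 3 markers, the 10 highest and 10 lowest ratios, the 8 highest and 8 lowest at 20 FPKM or more, the extremes among genes 4-fold from shCtrl in both lines (6 and 6 lower, 4 and 4 higher), up to 3 members per list with the largest ratio, and up to 6 genes listed at 0; other list members were picked after their values were seen. The comparison, members and lists were chosen with earlier results of these data known. Alternatives were scaling, filters, pseudocounts, the transcript used and gene types.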

Additional observations from a re-analysis of the deposited data

Results flagged for a closer look

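For 15 named genes the summed levels of the 2 lines lay on opposite sides of shCtrl, although both lines had less receptor transcript than shCtrl. Each log2 ratio to shCtrl was wider than the robust SD of log2(shGR2/shGR1) at that abundance, which is not a spread of ratios to shCtrl. Many named genes were picked for a wide ratio between the lines, and such genes often lay on opposite sides. This held for 79 of 129 genes 2-fold higher in shGR2 and 75 of 131 genes 2-fold lower. None of the 15 differences was tested, since there was 1 library per line. Higher in shGR2, with shGR1 below shCtrl, were Hsd11b2 (log2(shGR2/shGR1) of 1.52), Bgn (1.81), Thy1 (1.94), Dcn (1.33) and Rps15a (0.70). Bgn, Thy1 and Dcn are genes of mesenchymal cells. The sum of the fibroblast markers lay in the same order (9.23 FPKM in shCtrl, 5.99 FPKM in shGR1 and 13.0 FPKM in shGR2). Dcn is itself one of the markers summed, so for it the order is not a separate observation. Vim, another mesenchymal gene, was at 1.71, 0.807 and 1.52 FPKM, highest in shCtrl. The value of Rps15a rested on 1 short transcript, ENSMUST00000128482, at 4.82 FPKM in shCtrl and 42.7 FPKM in shGR2 and listed at 0 in shGR1, and was 0.09 on its most abundant transcript.

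Lower in shGR2, with shGR1 above shCtrl, were Cox20 (-3.18), Hist1h2ap (-1.97), Cbfa2t3 (-1.89), Sfxn4 (-1.501), Fxyd2 (-1.34), Lhfp (-1.15), Ifi27 (-1.14), Hgfac (-1.06), Cldn1 (-1.04) and Nudcd2 (-0.75). Cox20 was at 4.003 FPKM in shCtrl, 8.95 FPKM in shGR1 and 0.986 FPKM in shGR2. Cldn1, a tight junction claudin, was at 9.97, 13.6 and 6.62 FPKM, while the epithelial junction list as a whole had a median of 0.01. Nudcd2 was at 29.7, 40.3 and 23.9 FPKM. Its most abundant transcript, ENSMUST00000020578, was at 27.6, 26.4 and 16.4 FPKM, so that both lines were below shCtrl. The higher total in shGR1 came largely from ENSMUST00000141839, at 0, 8.99 and 2.68 FPKM. For Ifi27 the most abundant transcript, ENSMUST00000066701, was at 0.9995, 2.86 and 1.55 FPKM, above shCtrl in both lines.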

How the results depend on the processing

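The 130 genes higher and 137 lower in shGR2 by 2-fold depended most on the filter: 366 and 338 at a mean of 0.3 FPKM or more, 22 and 34 at 5 FPKM or more, and 1678 and 1188 with no filter. They were 66 and 70 with a pseudocount of 1 FPKM and 82 and 77 without predicted, clone-named and pseudogene symbols. Rescaling, centring, quantile normalization, trend removal, a pseudocount of 0.1 FPKM and the most abundant transcript kept each count within 1.5 times, but trend removal gave 160 and 106. The share of genes 2-fold from shCtrl in both lines with shGR2 nearer to it stayed between 63.7% and 81.5% for low genes and between 60.0% and 73.6% for high genes. No named gene that differed by 2-fold changed direction where the setting gave a value, but the most abundant transcript gave none for 12 of 132 named genes, 9 of these 2-fold different (Fxyd4 and Folr1 among them); 17 log2 ratios moved with the most abundant transcript, 26 with a pseudocount of 1 FPKM and 6 with quantile normalization. The medians of 7 lists lying near 0 changed sign with the scaling. The cause was not tested. No paired analysis was possible because each line had 1 library, and for the same reason no library could be left out.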

Other observations

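Hypoxia-responsive and glycolytic genes had a median log2(shGR2/shGR1) of -0.13 over 24 compared genes, with 3 at least 1.5-fold lower in shGR2 (3.75% of all genes were) and 0 higher. Hk2, a hexokinase, was at 8.38 FPKM in shCtrl, 20.5 FPKM in shGR1 and 10.1 FPKM in shGR2. Egln3, a prolyl hydroxylase induced in hypoxia, was at 6.001, 12.5 and 7.72 FPKM, and the aldolase gene Aldoc was at 20.97, 31.1 and 19.3 FPKM. In the totals of each of the 3 genes shGR2 lay near shCtrl and shGR1 was above both. For Aldoc this rested on ENSMUST00000102478, at 6.36, 17.05 and 8.64 FPKM. Its other main transcript, ENSMUST00000017534, was at 13.0, 12.65 and 9.80 FPKM and was not raised in shGR1. Abundant glycolytic genes were mixed: the lactate dehydrogenase gene Ldha was at 473, 616 and 514 FPKM, in the same order, and Gapdh was at 341, 252 and 303 FPKM, with shGR1 lowest.

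Of 9 compared nuclear-retained and noncoding RNAs, 4 were higher in shGR2 and 5 were lower. The 3 with the widest ratios were short RNAs made by RNA polymerase III, and these stood highest in shGR1. Rn7sk was at 27.0 FPKM in shCtrl, 52.5 FPKM in shGR1 and 25.5 FPKM in shGR2, Rmrp at 3.34, 7.76 and 4.16 FPKM, and Rpph1 at 1.49, 3.93 and 1.73 FPKM. Among antioxidant genes Nqo1, a quinone reductase, was at 153, 59.9 and 96.4 FPKM and Gclc, of glutathione synthesis, at 92.7, 33.1 and 48.6 FPKM, low in both lines and less so in shGR2, whereas the glutathione transferase genes Gstm2, at 519, 199 and 152 FPKM, and Gsta4, at 30.0, 9.50 and 6.87 FPKM, were lowest in shGR2. The zinc transporter Slc39a10 was at 5.83, 14.5 and 7.76 FPKM.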
